A study of Mus musculus with 12 samples.

Results

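Survival and growth-arrest response genes are described here in mouse peritoneal macrophages given apolipoprotein A-I (apoA-I), the protein that HDL particles are built around. The set was a list of 10 genes: Bcl2a1a, Bcl2l1, Bcl2l11, Mcl1, Cflar, Birc2, Gadd45a, Gadd45b, Pim1 and Pmaip1. A gene entered through probes that carry its name in the array files. This found 9 of the 10 genes, among 27666 distinct gene names on the array, with 20 probes. No probe was named Bcl2a1a. A probe named Bcl2a1b lists transcripts of 3 genes, Bcl2a1a, Bcl2a1b and Bcl2a1d, and its values are given in place of Bcl2a1a. They cannot be assigned to a single paralog.

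RNA was measured on 12 single-colour Agilent arrays, 3 in each of 4 groups. The groups were MyD88-null (strain MyD88-/-) cells with apoA-I, MyD88-null control cells, C57BL/6 cells with apoA-I and C57BL/6 control cells. All cells came from female mice aged 10 weeks and were elicited with thioglycollate, an irritant, 96 h before collection. All were loaded overnight with cholesterol at 10 µg/ml and then held in medium with polymyxin B, which binds bacterial lipopolysaccharide, at 25 µg/ml. Treated cells received apoA-I at 10 µg/ml, and all samples are labelled 2 h. MyD88 is a signalling adaptor of Toll-like and interleukin-1 family receptors, and the comparison addresses the response to apoA-I and its dependence on MyD88. The labels give neither the part of the Myd88 gene that is deleted nor the number of mice behind a sample. P-values therefore measure the spread between these samples, and in bulk RNA fewer cells of a type and less RNA per cell cannot be told apart.

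The genes act at successive points of cell death and cell-cycle control. Death receptors recruit caspase-8, and the product of Cflar (c-FLIP) blocks that step. In mitochondria, BCL-2 family guardians such as A1, BCL-XL and MCL-1 hold back pore formation, while BH3-only proteins such as BIM and NOXA bind and neutralise the guardians. Macrophages switch on several of these survival genes through NF-kappaB when they meet inflammatory stimuli.

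Values below are log2 signals relative to the 75th percentile of the same array, so a value of 0 is that percentile. Levels of different probes were set against each other only to pick the brightest probe of a gene and in the marker sums. All 20 probes were kept, and 19 were well above background on all 12 arrays. The 75th percentile of raw signal ran from 199.5 to 1408 between arrays. The free-text descriptions of MyD88-null apoA-I replicate 2, which leaves out the apoA-I step, and of C57BL/6 control replicate 2, which includes it, go against their titles. The titles were followed. All responses rest on these arrays, and the changes of each gene named by rule are also given without them. The single Myd88 probe averaged 2.81 ± 0.415 with apoA-I and 1.79 ± 0.358 in controls in MyD88-null cells (SD, n = 3 each). The C57BL/6 arrays averaged 3.96 ± 0.481 with apoA-I and 3.31 ± 0.303 in controls. It was above background on every array, and as the deleted part is not given, it does not check the labels. All 7 macrophage markers (Adgre1, Cd68, Csf1r, Itgam, Lyz2, Mertk and Cd14) were above background on all 12 arrays.

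The sequences of the probes that decide which transcript is read are given in lower case, 5′ to 3′. The first is shared by 3 Bcl2a1 paralogs and is placed on mm7 chr9:88829714-88837575, plus strand. The second reads Cflar across a span of 1025 bases of the genome, more than its 60 bases, at chr1:58982319-58983343, plus strand. The third reads Bcl2l11 across 11096 bases at chr2:127888010-127899105, plus strand. The fourth reads Pim1 on its own strand at chr17:27685743-27685802.
Bcl2a1b, probe A_51_P494241: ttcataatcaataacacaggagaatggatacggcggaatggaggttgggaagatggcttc
Cflar, probe A_52_P192071: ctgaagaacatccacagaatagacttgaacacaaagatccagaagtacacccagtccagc
Bcl2l11, probe A_51_P484880: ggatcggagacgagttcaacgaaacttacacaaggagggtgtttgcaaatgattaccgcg
Pim1, probe A_52_P530291: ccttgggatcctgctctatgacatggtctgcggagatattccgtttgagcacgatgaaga

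The other probe named Pim1, A_52_P535619, lies on the strand opposite to the gene. Its 60 bases are found, on the same strand, in the RefSeq window around the start of the long non-coding RNA Gm26885 on GRCm38.p6. That window runs over chr17:29491495-29491794, minus strand, inside Pim1 (29490785 to 29496111, plus strand). It is printed because it shows where this probe lies. The capitals mark the probe, which stands 197 to 138 bases upstream of the annotated start of Gm26885 and so outside that transcript as annotated.
Gm26885 start window: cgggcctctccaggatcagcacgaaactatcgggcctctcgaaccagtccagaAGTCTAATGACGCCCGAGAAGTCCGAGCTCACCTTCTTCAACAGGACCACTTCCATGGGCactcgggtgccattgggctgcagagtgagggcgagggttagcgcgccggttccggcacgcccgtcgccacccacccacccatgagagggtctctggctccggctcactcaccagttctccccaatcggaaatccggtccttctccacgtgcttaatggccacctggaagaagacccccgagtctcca

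ApoA-I raised Cflar in both genotypes, and 8 of the 9 genes had a positive log2 change in each. Differences were tested with limma over all 16743 genes measured, with each gene read by its brightest probe, and called at an adjusted p under 0.05. Cflar was the gene called in MyD88-null cells, 1 of 9, where 1.13% of all genes were called higher. It was also the gene called in C57BL/6 cells, 1 of 9, where 0.812% of all genes were called higher. The median log2 change over the 9 genes was 0.71 in MyD88-null cells, against 0.052 over all genes. It was 0.41 in C57BL/6 cells, against -0.002 over all genes. The set was chosen with earlier results of these data known. Its counts and medians beside those of all genes, here and below, therefore do not test the set.

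The 4 samples of a replicate number came from the same experiment and varied together, so a fit with the experiment as a block was also made. Replicate 3 also had its own scan day and software version, which the block cannot tell apart from the experiment. MyD88-null apoA-I replicate 1 and MyD88-null control replicate 2 were scanned on day 2, the other arrays of replicates 1 and 2 on day 1. In MyD88-null cells, apoA-I and control of experiments 1 and 2 therefore differ in slide and scan day as well. With the block, 4 of 9 genes were called in MyD88-null cells (Birc2, Cflar, Gadd45b and Pim1), where 3.46% of all genes were called higher. In C57BL/6 cells the block also gave 4 of 9 (Bcl2l11, Cflar, Gadd45b and Pim1), where 2.37% of all genes were called higher. In each genotype the apoA-I and control arrays did not overlap for 4 of the 9 genes, Bcl2l11, Cflar, Gadd45b and Pim1, all higher with apoA-I. Over all genes the groups did not overlap, with apoA-I higher, for 6.3% in MyD88-null cells and 6.76% in C57BL/6 cells. The plot of values on each array shows these genes, and the plot of responses sets the genotypes side by side.

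**Figure D1:**
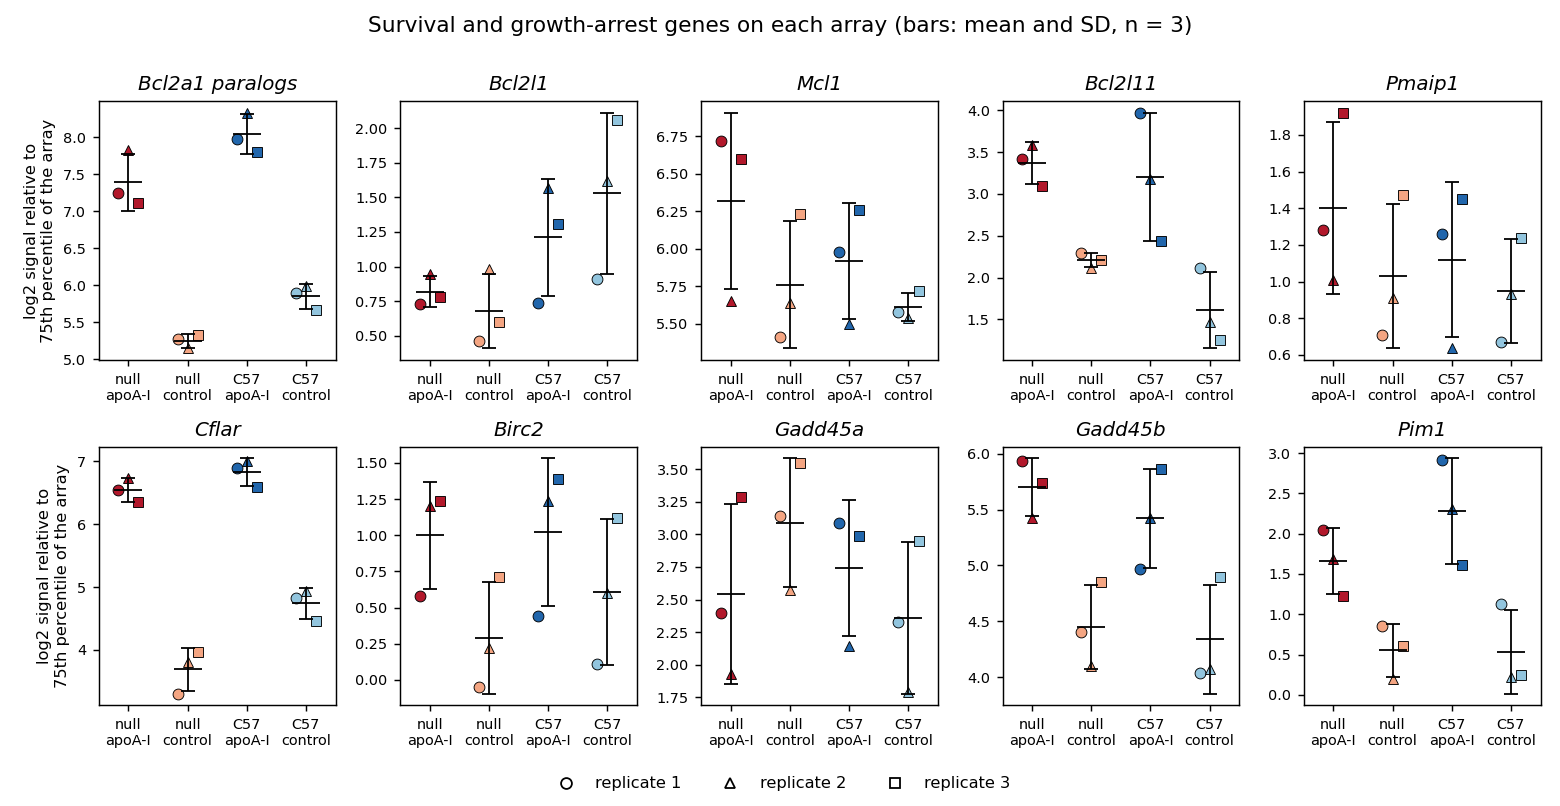
Log2 signal relative to the 75th percentile of the array (y axis, a separate range for each gene) on each of the 12 arrays, by group; symbols mark the replicate and bars the mean and SD (n = 3). Cflar and the Bcl2a1 paralogs lie higher with apoA-I than in controls on every array of both genotypes, as do Bcl2l11, Gadd45b and Pim1, while the groups overlap for the other genes.

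**Figure D2:**
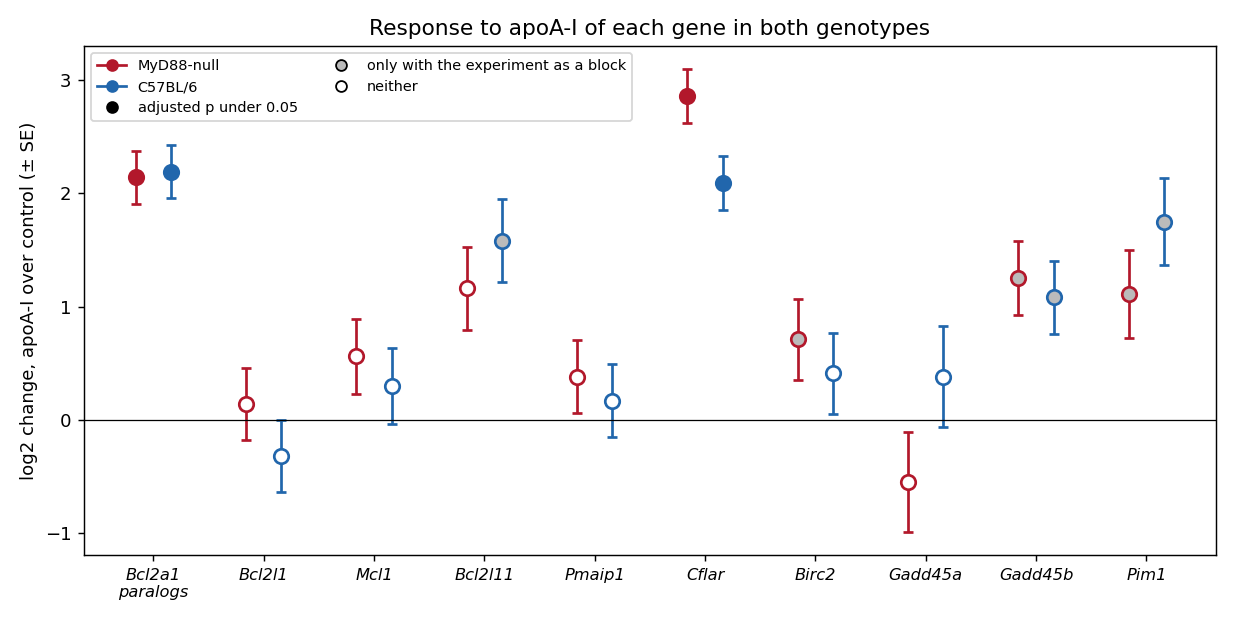
Log2 change of each gene, apoA-I over control, with its SE, in MyD88-null (red) and C57BL/6 cells (blue). Filled points passed an adjusted p of 0.05, grey points passed with the experiment as a block, and open points passed neither; Gadd45a lies below 0 in MyD88-null cells and above it in C57BL/6 cells.

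Cflar encodes c-FLIP, the brake on caspase-8 at death receptors. The Cflar brightest probe (A_51_P326091, mm7 chr1:59009837-59009896) read 6.55, 6.74 and 6.36 with apoA-I in MyD88-null cells, against 3.30, 3.80 and 3.96 in their controls. Cflar read 6.90, 7.01 and 6.59 with apoA-I in C57BL/6 cells, against 4.83, 4.93 and 4.46 in their controls. All arrays with apoA-I were above all controls of their genotype, and the MyD88-null controls were the lowest of the 4 groups.

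This was a 7.28-fold increase in MyD88-null cells (log2 2.86, SE 0.237, limma adjusted p = 0.000204). The increase in C57BL/6 cells was 4.25-fold (log2 2.09, SE 0.237, limma adjusted p = 0.00186). By experiment the increases were 3.25, 2.94 and 2.40 in MyD88-null cells and 2.07, 2.07 and 2.12 in C57BL/6 cells. Within a slide they were 2.76 and 2.40 in MyD88-null cells and 2.07 and 2.07 in C57BL/6 cells. Within a scan day they were 3.44, 2.76 and 2.40 in MyD88-null cells and 2.07 and 2.12 in C57BL/6 cells. The first slide value of MyD88-null cells, here and below, sets apoA-I replicate 1 against control replicate 2, so it crosses experiments. The scan-day values of 3.44 and 2.76 cross experiments too. Without the arrays whose descriptions conflict, the call stood at 2.77 in MyD88-null cells (limma adjusted p = 0.00666) and 2.18 in C57BL/6 cells (limma adjusted p = 0.0227). With treatment taken from the descriptions instead, the change was 2.01 in MyD88-null cells (limma adjusted p = 0.879) and 1.71 in C57BL/6 cells (limma adjusted p = 1). With those assignments 0 genes on the array were called in either response.

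The response of Cflar was larger by 0.78 in MyD88-null cells (SE 0.335), which was not called (limma adjusted p = 1, and 0.64 with the block). In controls the MyD88-null arrays were lower than the C57BL/6 arrays without overlap (log2 difference -1.06, SE 0.237), again not called (limma adjusted p = 0.278, and 0.0823 with the block). With apoA-I the genotypes overlapped and differed by -0.28 (SE 0.237).

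All 5 Cflar probes were higher with apoA-I on every array of both genotypes. Fitted probe by probe over 24351 probes, 5 of the 5 were called in MyD88-null cells, at log2 2.69 to 3.23, and 3 of the 5 in C57BL/6 cells, at 2.09 to 2.97. The 2 that were not called in C57BL/6 cells had a change of 2.11 (A_52_P226929, limma adjusted p = 0.0744) and 2.13 (A_52_P624648, limma adjusted p = 0.107). These 2 share a stretch of 36 bases and are not independent readings. Leaving out the conflicting arrays, they were not called in MyD88-null cells either, at 2.28 (A_52_P226929, limma adjusted p = 0.125) and 2.26 (A_52_P624648, limma adjusted p = 0.178), and the other calls of Cflar probes stood. The probe printed above, A_52_P192071, read 0.67, 1.18 and 0.39 with apoA-I, against -2.40, -2.32 and -2.24 in controls, in MyD88-null cells. This probe read 1.99, 1.93 and 1.20 with apoA-I in C57BL/6 cells, against -0.98, -1.37 and -1.45 in their controls. Its changes of 3.06 in MyD88-null cells and 2.97 in C57BL/6 cells lay closer together than those of the brightest probe. In controls the 5 probes were lower in MyD88-null cells, with differences of -1.05 to -1.49, and none was called. They read the same gene on the same arrays, so they do not count as separate results.

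The genes whose values over the 12 arrays were most like those of Cflar were Icam1 (Pearson r = 0.993), Nupr1 (r = 0.985) and Phldb1 (r = 0.985). These r values describe points that share 2 genotypes and 2 treatments. Icam1, an adhesion molecule for leukocytes, rose by 4.56 in MyD88-null cells (limma adjusted p = 4.45e-05) and 3.09 in C57BL/6 cells (limma adjusted p = 0.000583). Nupr1, a stress-induced nuclear protein, rose by 2.19 in MyD88-null cells (limma adjusted p = 0.00137) and 1.82 in C57BL/6 cells (limma adjusted p = 0.00716). Without C57BL/6 apoA-I replicate 2 its change in C57BL/6 cells was 1.73 and not called (limma adjusted p = 0.0556), nor was it without the arrays of conflicting description, at 1.87 (limma adjusted p = 0.0757). Phldb1 rose by 2.47 in MyD88-null cells (limma adjusted p = 0.000377) and 1.80 in C57BL/6 cells (limma adjusted p = 0.00396). Without the conflicting arrays Icam1 stayed called at 4.35 in MyD88-null cells and 3.15 in C57BL/6 cells, as did Phldb1 at 2.34 in MyD88-null cells and 1.86 in C57BL/6 cells and Nupr1 at 2.14 in MyD88-null cells.

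Among the BCL-2 family guardians, the A1 proteins encoded by the Bcl2a1 genes are short-lived inhibitors of mitochondrial death. The shared probe read 7.24, 7.83 and 7.11 with apoA-I in MyD88-null cells, against 5.27, 5.15 and 5.33 in their controls. The shared probe read 7.98, 8.33 and 7.80 with apoA-I in C57BL/6 cells, against 5.89, 5.99 and 5.66 in their controls. No array with apoA-I overlapped a control of its genotype.

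The shared Bcl2a1 probe rose 4.42-fold in MyD88-null cells (log2 2.14, SE 0.235, limma adjusted p = 0.000915) and 4.57-fold in C57BL/6 cells (log2 2.19, SE 0.235, limma adjusted p = 0.00142). The responses differed by -0.05 (SE 0.333). Within a slide the changes were 2.09 and 1.78 in MyD88-null cells and 2.09 and 2.34 in C57BL/6 cells. Without the arrays of conflicting description they were 1.92 (limma adjusted p = 0.0134) in MyD88-null cells and 2.27 (limma adjusted p = 0.00994) in C57BL/6 cells. In both treatments MyD88-null means were lower, with differences of -0.64 (SE 0.235) with apoA-I and -0.60 (SE 0.235) in controls, and neither was called.

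Bcl2l1 encodes BCL-XL, a constitutive guardian. The Bcl2l1 brightest probe (A_52_P148861) read 0.73, 0.95 and 0.78 with apoA-I in MyD88-null cells, against 0.46, 0.98 and 0.60 in their controls. Bcl2l1 read 0.74, 1.57 and 1.31 with apoA-I in C57BL/6 cells, against 0.91, 1.62 and 2.06 in their controls. The groups overlapped, and the changes were 0.14 (SE 0.317) in MyD88-null cells and -0.32 (SE 0.317) in C57BL/6 cells. Of the 9 genes it was the one with a negative change in C57BL/6 cells. Its 3 probes had a change of -0.17 to 0.53 in MyD88-null cells and by -0.32 to 0.30 in C57BL/6 cells, so they did not share a direction. With the conflicting arrays left out the brightest probe had changes of 0.08 in MyD88-null cells and -0.28 in C57BL/6 cells.

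Mcl1 encodes the guardian MCL-1, whose protein and transcript turn over fast. The Mcl1 brightest probe (A_51_P238786) read 6.72, 5.65 and 6.60 with apoA-I in MyD88-null cells, against 5.41, 5.64 and 6.23 in their controls. Mcl1 read 5.98, 5.50 and 6.26 with apoA-I in C57BL/6 cells, against 5.58, 5.54 and 5.72 in their controls. The groups overlapped in both genotypes and the changes of 0.56 in MyD88-null cells and 0.30 in C57BL/6 cells (SE 0.334 each) were not called. With the conflicting arrays left out they were 0.90 in MyD88-null cells and 0.26 in C57BL/6 cells. The other probe (A_52_P93933) had a change of 0.85 in MyD88-null cells, where its groups did not overlap, and by 0.65 in C57BL/6 cells, with neither called.

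On the other side, Bcl2l11 encodes BIM, a BH3-only protein that opposes the guardians. The Bcl2l11 brightest probe (A_52_P158527, mm7 chr2:127903168-127903227) read 3.42, 3.59 and 3.10 with apoA-I in MyD88-null cells, against 2.29, 2.12 and 2.21 in their controls. Bcl2l11 read 3.97, 3.18 and 2.44 with apoA-I in C57BL/6 cells, against 2.12, 1.47 and 1.25 in their controls. The groups did not overlap in either genotype, and replicate 3 was the lowest C57BL/6 array with apoA-I.

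The change of this Bcl2l11 probe was 1.16 in MyD88-null cells (SE 0.366, limma adjusted p = 0.291, and 0.0506 with the block). The Bcl2l11 change in C57BL/6 cells was 1.58 (SE 0.366, limma adjusted p = 0.109, and 0.0186 with the block). Without C57BL/6 apoA-I replicate 3 the change in C57BL/6 cells was 1.96 and was called (limma adjusted p = 0.0349). Leaving out the conflicting arrays, it was 1.05 in MyD88-null cells and 1.51 in C57BL/6 cells, with neither called.

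The Bcl2l11 probe that spans 11096 bases, A_51_P484880, was called in both genotypes. In MyD88-null cells it read 0.39, 1.00 and 0.19 with apoA-I, against -1.54, -1.61 and -1.56 in controls. The same probe read 0.78, 1.36 and 0.33 with apoA-I in C57BL/6 cells, against -1.66, -2.35 and -2.10 in their controls. It rose by 2.09 (SE 0.311, limma adjusted p = 0.00801 among all probes) in MyD88-null cells and by 2.86 (SE 0.311, limma adjusted p = 0.00157) in C57BL/6 cells. Within a slide the changes were 1.99 and 1.75 in MyD88-null cells and 2.44 and 3.70 in C57BL/6 cells. Without the arrays of conflicting description it was not called in MyD88-null cells, at 1.86 (limma adjusted p = 0.0722), and was called in C57BL/6 cells, at 2.70 (limma adjusted p = 0.0194).

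The third Bcl2l11 probe, A_52_P348214, was dim. It was well above background on 3 of 3 arrays with apoA-I and 1 of 3 control arrays in each genotype. With most of its controls not well above background, no size is given for its change, and it was not called in either genotype. The rule of reading a gene by its brightest probe therefore left Bcl2l11 uncalled, while another of its probes was called in both genotypes. In the test over all probes, 6 of the 20 member probes were called in MyD88-null cells, where 1.08% of all probes were called higher. In C57BL/6 cells 5 of the 20 were called, where 0.752% of all probes were called higher. These were probes of Cflar and Bcl2l11 in MyD88-null cells, and of Cflar, Bcl2l11 and Gadd45b in C57BL/6 cells.

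**Figure D3:**
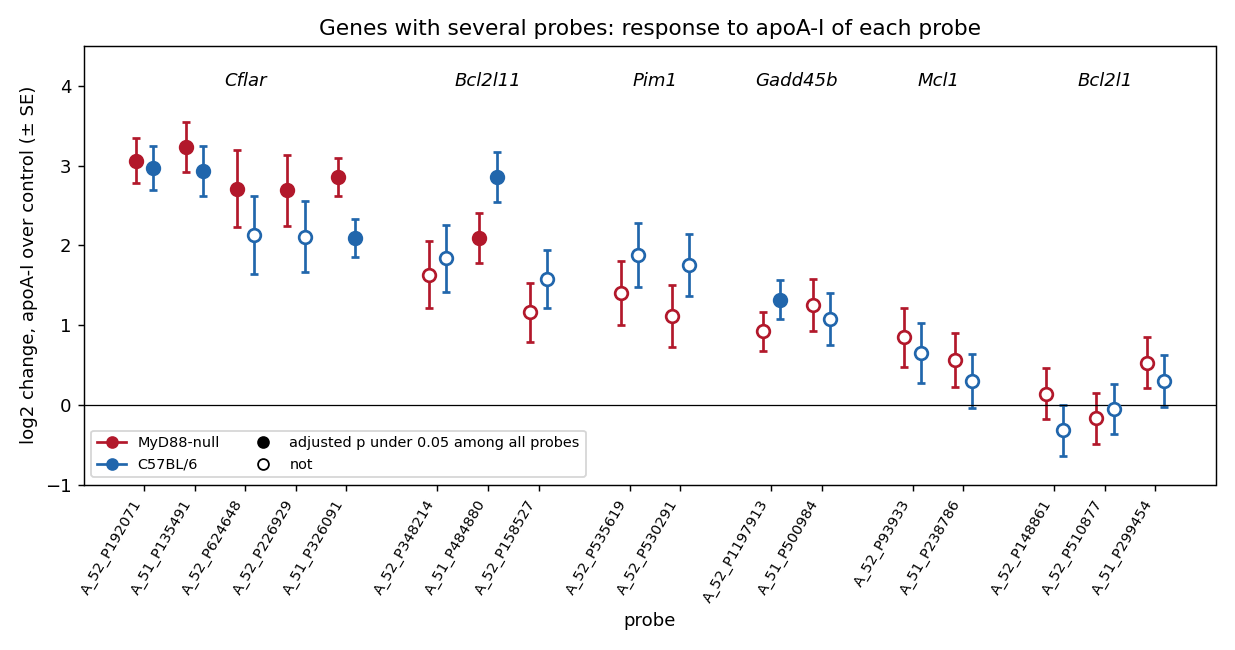
Log2 change of each probe, apoA-I over control, with its SE, for the 6 genes with several probes, in MyD88-null (red) and C57BL/6 cells (blue); filled points passed an adjusted p of 0.05 among all 24351 probes. All 5 Cflar probes lie between 2.09 and 3.23 and the 3 Bcl2l1 probes lie on both sides of 0; the Bcl2l11 probe A_52_P348214 was well above background on only 1 of 3 control arrays in each genotype, so its plotted size is not read.

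Pmaip1 encodes NOXA, a BH3-only protein that binds MCL-1. The Pmaip1 probe read 1.28, 1.01 and 1.92 with apoA-I in MyD88-null cells, against 0.71, 0.91 and 1.47 in their controls. Pmaip1 read 1.26, 0.64 and 1.45 with apoA-I in C57BL/6 cells, against 0.67, 0.93 and 1.24 in their controls. The groups overlapped, and the changes of 0.38 (SE 0.323) in MyD88-null cells and 0.17 (SE 0.323) in C57BL/6 cells were not called. With the conflicting arrays left out they were 0.57 in MyD88-null cells and 0.16 in C57BL/6 cells.

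Birc2 encodes cIAP1, a ubiquitin ligase at the tumour necrosis factor receptor. The Birc2 probe (mm7 chr9:7849950-7850009) read 0.58, 1.20 and 1.24 with apoA-I in MyD88-null cells, against -0.05, 0.22 and 0.71 in their controls. Birc2 read 0.44, 1.24 and 1.39 with apoA-I in C57BL/6 cells, against 0.11, 0.60 and 1.12 in their controls. The groups overlapped, although apoA-I was higher in each of the 3 experiments of both genotypes. The change was 0.71 in MyD88-null cells (SE 0.356, limma adjusted p = 0.645), which was called with the block (limma adjusted p = 0.0422). The Birc2 change in C57BL/6 cells was 0.41 (SE 0.356, limma adjusted p = 1, and 0.216 with the block). With the conflicting arrays left out it was 0.61 in MyD88-null cells and 0.41 in C57BL/6 cells.

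Gadd45b and Gadd45a encode small stress proteins that bind MTK1/MEKK4, PCNA and p21 and slow the cell cycle. The brightest Gadd45b probe (A_51_P500984, mm7 chr10:80721751-80721810) read 5.93, 5.42 and 5.74 with apoA-I in MyD88-null cells, against 4.40, 4.10 and 4.85 in their controls. Gadd45b read 4.97, 5.42 and 5.86 with apoA-I in C57BL/6 cells, against 4.04, 4.07 and 4.90 in their controls. The groups did not overlap in either genotype.

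The change of Gadd45b was 1.25 in MyD88-null cells (SE 0.326, limma adjusted p = 0.154, and 0.0225 with the block). The Gadd45b change in C57BL/6 cells was 1.08 (SE 0.326, limma adjusted p = 0.288, and 0.0429 with the block). Its other probe (A_52_P1197913) had a change of 0.92 in MyD88-null cells (SE 0.246, limma adjusted p = 0.166 among all probes). In C57BL/6 cells that probe rose by 1.32 (SE 0.246, limma adjusted p = 0.0409), a call lost without the arrays of conflicting description, at 1.36 (limma adjusted p = 0.215). Without those arrays the change of the brightest probe was 1.39 in MyD88-null cells and 0.94 in C57BL/6 cells.

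The p53-induced member is Gadd45a, with a negative mean change in MyD88-null cells. Its probe (mm7 chr6:67017167-67017226) read 2.40, 1.93 and 3.29 with apoA-I, against 3.14, 2.57 and 3.55 in controls, in MyD88-null cells. Gadd45a read 3.09, 2.14 and 2.99 with apoA-I in C57BL/6 cells, against 2.33, 1.79 and 2.95 in their controls. The groups overlapped in both genotypes. Within experiments apoA-I minus control was -0.74, -0.64 and -0.26 in MyD88-null cells and 0.76, 0.35 and 0.03 in C57BL/6 cells. The mean changes were -0.55 in MyD88-null cells and 0.38 in C57BL/6 cells (SE 0.444 each), and neither was called. The responses differed by -0.93 (SE 0.628), which was not called (limma adjusted p = 1, and 0.59 with the block). Leaving out the conflicting arrays, the changes were -0.24 in MyD88-null cells and 0.10 in C57BL/6 cells.

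Pim1 encodes a serine/threonine kinase that is controlled mainly by its transcription and phosphorylates the BH3-only protein BAD. The Pim1 brightest probe, printed above, read 2.05, 1.68 and 1.23 with apoA-I in MyD88-null cells, against 0.85, 0.20 and 0.60 in their controls. Pim1 read 2.92, 2.31 and 1.61 with apoA-I in C57BL/6 cells, against 1.13, 0.22 and 0.25 in their controls. The groups did not overlap in either genotype.

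The change of Pim1 was 1.11 in MyD88-null cells (SE 0.387, limma adjusted p = 0.377, and 0.0336 with the block). The Pim1 change in C57BL/6 cells was 1.75 (SE 0.387, limma adjusted p = 0.094, and 0.00549 with the block). Within a slide the changes were 1.86 and 0.63 in MyD88-null cells and 1.79 and 2.09 in C57BL/6 cells. Without the arrays of conflicting description they were 1.10 in MyD88-null cells and 1.59 in C57BL/6 cells, not called. The probe on the opposite strand, shown in its window above, read -1.46, -1.51 and -1.38 with apoA-I, against -2.98, -3.06 and -2.53 in controls, in MyD88-null cells. The opposite-strand probe read -0.69, -0.92 and -1.57 with apoA-I in C57BL/6 cells, against -2.40, -2.47 and -3.96 in their controls. Its change had the same sign as that of Pim1, at 1.40 in MyD88-null cells and 1.88 in C57BL/6 cells (SE 0.402 each), without overlap and without a call. Which transcript it bound was not tested.

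No gene of the set was called for a difference between genotypes in its response to apoA-I, nor was any gene on the array (0% called in limma, with 196 at an unadjusted p under 0.05). Of the 9 genes, 1 (Cflar) was at an unadjusted p under 0.05 in that test. The SE of these 9 differences ran from 0.335 for Cflar to 0.628 for Gadd45a. No gene of the set was called between MyD88-null and C57BL/6 cells with apoA-I, where 0.0657% of all genes were called. None was called between MyD88-null and C57BL/6 control cells, where 0.0956% of all genes were called. In controls 2 of the 9 were at an unadjusted p under 0.05, Cflar at -1.06 and Bcl2l1 at -0.85 (SE 0.317). Over all 16743 genes, 589 were at that level in controls. The Bcl2l1 groups overlapped, and its other probes differed by -0.50 and -0.48. With apoA-I 0 of the 9 were at an unadjusted p under 0.05, against 656 of all genes. The comparisons share arrays: a low control group enters both the control comparison and the response.

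The other genes of the pathway were read from lists of family members. Their counts stand beside 1.13% of all genes called higher in MyD88-null cells and 0.812% in C57BL/6 cells. The lists were chosen with earlier results of these data known and include genes described above, so these counts do not test the lists. Among guardians of the BCL-2 family, 6 of 9 listed genes could be tested, and 2 rose in each genotype, the shared Bcl2a1 probe and Bcl2a1c. The median log2 change of the list was 0.72 in MyD88-null cells and 0.37 in C57BL/6 cells. Bcl2a1c rose by 2.28 in MyD88-null cells (SE 0.304, limma adjusted p = 0.00389) and 2.50 in C57BL/6 cells (SE 0.304, limma adjusted p = 0.0028). Its call in MyD88-null cells was lost without the arrays of conflicting description, at 2.05 (limma adjusted p = 0.0514). It belongs to the same multigene family as the shared probe, so the readings may not be independent.

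Among the killers of the family, 9 of 11 listed genes could be tested, and none was called in either genotype by its brightest probe. In the test over all probes, the Bcl2l11 probe A_51_P484880 was called higher in both genotypes, as given above. The median was -0.07 in MyD88-null cells and 0.10 in C57BL/6 cells. With the block Bmf, a BH3-only gene named here after its values were seen, was lower, at -2.15 in MyD88-null cells (limma adjusted p = 0.028) and -2.19 in C57BL/6 cells (limma adjusted p = 0.0294). The block also called Bcl2l11 higher in C57BL/6 cells, as given above. Over all genes the block called 0.609% lower in MyD88-null cells and 1.04% lower in C57BL/6 cells.

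Among the inhibitors of apoptosis, 1 of 8 genes was called in MyD88-null cells and 0 of 8 in C57BL/6 cells, with list medians of 0.10 in MyD88-null cells and -0.04 in C57BL/6 cells. Birc3, which encodes cIAP2, read 2.89, 3.05 and 3.36 with apoA-I, against 1.21, 1.14 and 1.66 in controls, in MyD88-null cells. Birc3 read 3.59, 2.98 and 3.11 with apoA-I in C57BL/6 cells, against 2.81, 2.13 and 2.35 in their controls. It rose by 1.77 in MyD88-null cells by this probe (SE 0.262, limma adjusted p = 0.0076), and the change of 0.79 in C57BL/6 cells was not called (SE 0.262, limma adjusted p = 0.354). Its other probe was called in neither genotype, at 1.81 in MyD88-null cells (SE 0.658, limma adjusted p = 0.433 among all probes) and 0.59 in C57BL/6 cells (SE 0.658). The difference of 0.97 (SE 0.371) between these responses was not called either (limma adjusted p = 1). Leaving out the conflicting arrays, the change in MyD88-null cells was 1.79 and not called (limma adjusted p = 0.0648).

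In the death receptor complex, 3 of 11 tested genes rose in MyD88-null cells (Cflar, Fas and Traf1) and 2 of 11 in C57BL/6 cells (Cflar and Traf1), where 1.13% of all genes were called higher in MyD88-null cells and 0.812% in C57BL/6 cells. The median over the list was 0.01 in MyD88-null cells and 0.11 in C57BL/6 cells. Traf1, an adaptor of tumour necrosis factor receptors, rose by 2.74 in MyD88-null cells (SE 0.237, limma adjusted p = 0.000255) and 2.58 in C57BL/6 cells (SE 0.237, limma adjusted p = 0.000752). The Traf1 controls did not overlap between genotypes, at 0.34, 0.41 and 0.44 in MyD88-null cells, against 2.30, 1.57 and 1.63 in C57BL/6 cells. This difference of -1.44 was called with the block (limma adjusted p = 0.0331) and not without it (limma adjusted p = 0.0711). Without the conflicting arrays Traf1 stayed called, at 2.59 in MyD88-null cells and 2.45 in C57BL/6 cells.

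Fas, the death receptor itself, read 1.91, 3.11 and 2.86 with apoA-I, against -0.26, 0.75 and 0.25 in controls, in MyD88-null cells. Fas read 2.23, 3.62 and 3.42 with apoA-I in C57BL/6 cells, against 1.99, 2.66 and 2.41 in their controls, and these overlapped. It rose by 2.38 in MyD88-null cells (SE 0.444, limma adjusted p = 0.0303) and had a change of 0.74 in C57BL/6 cells (SE 0.444, limma adjusted p = 0.935). The responses differed by 1.64 (SE 0.628), which was not called (limma adjusted p = 1, and 0.227 with the block). In controls Fas was lower in MyD88-null cells, at -2.11, called with the block (limma adjusted p = 0.00225) and not without it (limma adjusted p = 0.212). Its call in MyD88-null cells was lost without MyD88-null apoA-I replicate 2 or 3, without any of the 3 MyD88-null controls, or without C57BL/6 control replicate 2 or 3, at changes of 2.13 to 2.63 (limma adjusted p = 0.0534 to 0.153). It was also lost with no filter on dim probes (limma adjusted p = 0.0682) and without the conflicting arrays, at 2.14 (limma adjusted p = 0.245). The caspase that c-FLIP blocks, Casp8, named after its values were seen, had a change of -0.65 in MyD88-null cells and 0.01 in C57BL/6 cells, without a call.

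Among caspases and the apoptosome, none of 11 genes was called, with medians of -0.16 in MyD88-null cells and -0.32 in C57BL/6 cells. With the block Casp2 was lower in MyD88-null cells (-1.12, limma adjusted p = 0.0296), and Casp2 (-1.15, limma adjusted p = 0.0307) and Casp9 (-1.05, limma adjusted p = 0.0493) in C57BL/6 cells, both named after their values were seen. Among 21 genes of p53 response and growth arrest, 2 rose in MyD88-null cells (Cdkn1a and Btg1) and 1 in C57BL/6 cells (Cdkn1a). The medians of that list were 0.36 in MyD88-null cells and 0.38 in C57BL/6 cells, and with the block 5 rose and 1 fell in MyD88-null cells, against 4 and 1 in C57BL/6 cells. With the block 3.46% of all genes rose and 0.609% fell in MyD88-null cells, and 2.37% rose and 1.04% fell in C57BL/6 cells. The gene that fell with the block was Gadd45g, named here after its values were seen, at -2.18 in MyD88-null cells (limma adjusted p = 0.0267) and -2.29 in C57BL/6 cells (limma adjusted p = 0.0251).

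Cdkn1a encodes p21, the cyclin-dependent kinase inhibitor. In MyD88-null cells it read 3.64, 4.43 and 3.63 with apoA-I, against 1.66, 1.56 and 1.44 in controls. Cdkn1a read 4.11, 4.08 and 3.56 with apoA-I in C57BL/6 cells, against 2.20, 1.97 and 0.91 in their controls. It rose by 2.35 in MyD88-null cells (SE 0.356, limma adjusted p = 0.00863) and 2.22 in C57BL/6 cells (SE 0.356, limma adjusted p = 0.0169). The call in C57BL/6 cells was lost without C57BL/6 apoA-I replicate 1 or 2 or C57BL/6 control replicate 2, at 2.13 to 2.36 (limma adjusted p = 0.0568 to 0.11). Without the arrays of conflicting description it was lost in MyD88-null cells too, at 2.08 (limma adjusted p = 0.0811). Btg1, an anti-proliferative gene, rose by 1.45 in MyD88-null cells by its brightest probe (SE 0.186, limma adjusted p = 0.00291). Its other probe was not called there, at 1.05 (limma adjusted p = 0.189 among all probes). Btg1 had a change in C57BL/6 cells of 0.91 (SE 0.186, limma adjusted p = 0.0668, and 0.0111 with the block). Without the conflicting arrays it was 1.45 in MyD88-null cells (limma adjusted p = 0.0475) and 0.89 in C57BL/6 cells (limma adjusted p = 0.379). Of the 3 Pim kinases none was called, with medians of 0.47 in MyD88-null cells and 1.69 in C57BL/6 cells. With the block Pim3, named after its values were seen, was called beside Pim1 in C57BL/6 cells (1.69, limma adjusted p = 0.0129).

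**Figure D4:**
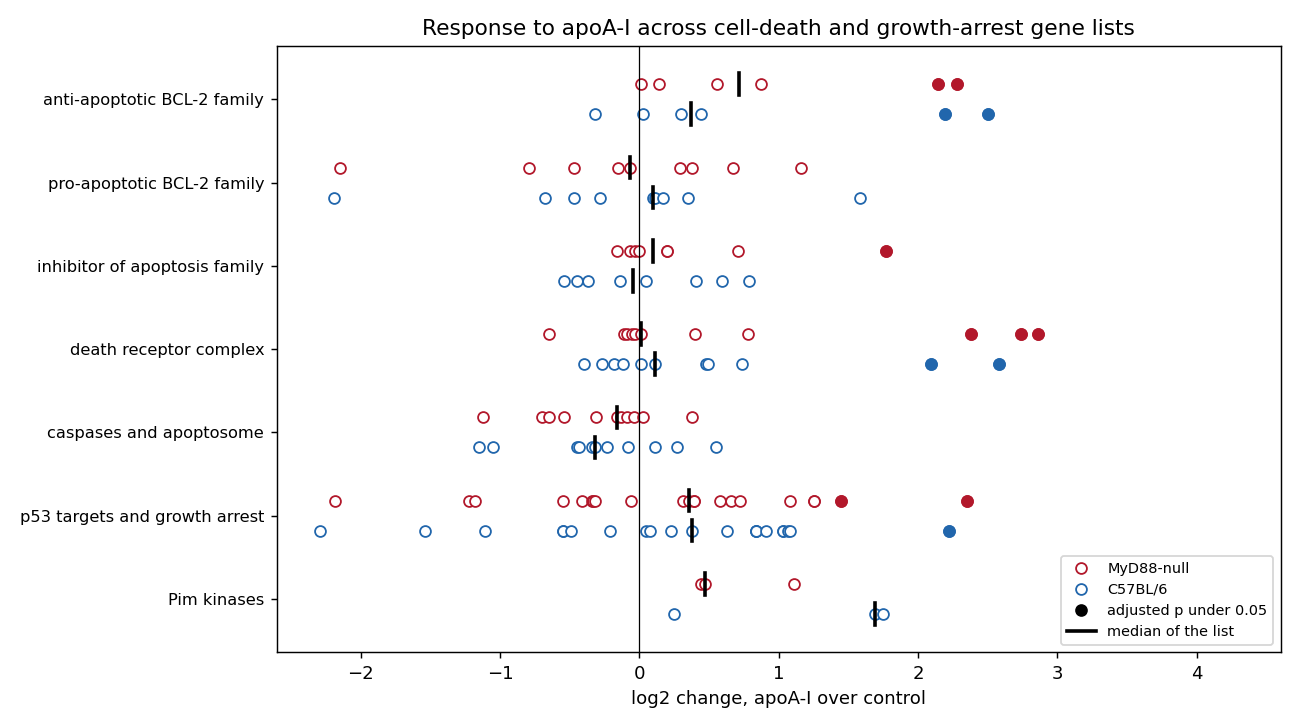
Log2 change, apoA-I over control (x axis), of each tested gene of 7 lists, in MyD88-null (red, upper row of each list) and C57BL/6 cells (blue, lower row); filled points passed an adjusted p of 0.05 and bars mark list medians. Guardians of the BCL-2 family and the death receptor complex hold called genes on the right in both genotypes. The killers and caspases hold none, with each gene plotted by its brightest probe. The Bcl2l11 probe A_51_P484880, not plotted here, was called in both genotypes.

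Markers of other cells were read beside these results, and their part in the results was not tested. Over 9 marker lists no gene was called in either response, and with the block 1 dendritic cell marker was called higher in MyD88-null cells and 1 macrophage marker in C57BL/6 cells. The summed linear signal of the 7 macrophage markers, as a multiple of the 75th percentile, was 715 to 1280 with apoA-I, against 628 to 745 in controls, in MyD88-null cells. The sum in C57BL/6 cells was 764 to 923 with apoA-I, against 556 to 850 in controls. This sum rests mostly on the brightest marker, Lyz2, which read 10.11 on MyD88-null apoA-I replicate 1. Gene by gene, the median log2 change of the 7 markers was -0.10 in MyD88-null cells, with 3 of 7 positive. That median was 0.09 in C57BL/6 cells, with 4 of 7 positive. The 3 dendritic cell markers (Flt3, Zbtb46 and Xcr1) summed to 0.816 to 2.61 with apoA-I and 0.326 to 1.75 in controls in MyD88-null cells, and to 0.733 to 2.56 with apoA-I and 0.394 to 1.69 in controls in C57BL/6 cells. The 4 B cell markers summed to 4.07 to 7.31 in MyD88-null cells with apoA-I, against 7.71 to 8.51 in C57BL/6 cells with apoA-I. In controls they summed to 4.43 to 5.12 in MyD88-null cells, against 7.50 to 8.80 in C57BL/6 cells, without overlap. The 5 mast cell markers summed to 2.25 to 3.96 in MyD88-null cells with apoA-I, against 5.64 to 6.24 in C57BL/6 cells with apoA-I. In controls they summed to 2.21 to 4.07 in MyD88-null cells, against 4.28 to 5.42 in C57BL/6 cells. The 7 mesothelial cell and fibroblast markers summed to 55 to 162 with apoA-I and 46.8 to 189 in controls in MyD88-null cells. Their sums in C57BL/6 cells were 64 to 203 with apoA-I and 51.8 to 185 in controls. RNA of such cells was thus read on these arrays too, and the sums varied widely within each group.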

How the data were processed

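The members and the gene lists were chosen with earlier results of these data known. The arrays are single-colour Agilent arrays, and the deposited scanner files hold each spot's processed signal intensity, background-corrected and detrended within the array by Feature Extraction 9.5, per the file headers. The deposited series table follows the log10 of these intensities by its values, and its normalization and centring are not given in the sources used here. Its column medians were 1.8225 to 1.8676, and it correlated with the log10 intensities of the same array at 0.99257 to 0.99974.

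From the intensities, log2 values were computed and the 75th percentile of each array was subtracted. Control spots and spots flagged as outliers were left out. A probe was kept where every array of 1 or more groups had it well above background (24351 probes), and the probe with the highest mean stood for its gene (16743 genes). Gene names were updated through RefSeq accessions and symbols, while members went by the name in the files. One limma 3.58.1 model (R 4.3.3, lmFit and eBayes) over 12 arrays and 4 groups gave 5 comparisons, with Benjamini-Hochberg adjustment over all genes and a threshold of 0.05. The script was tested on simulated data. The number of arrays limits the precision.

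Replicate numbers mark shared experiments per the series design. Deviations of same-numbered samples correlated at 0.2957 to 0.85935 and those of other pairs at -0.81231 to 0.5469, so these ranges overlap. A fit with the experiment as a block is given where it changes a call. The replicate 3 arrays, and no others, were scanned on scan day 3 with Feature Extraction 9.5.3.1, the rest with 9.5.1.1. Experiment and scan batch cannot be told apart there. Probe positions are on mm7, per the file headers, and the Gm26885 window is RefSeq's on GRCm38.p6. All members were named, other list genes where called in a response, and the 3 genes most correlated with a called member. Exceptions are marked. Alternatives were the background correction, the normalization, the filter, every probe, blocks for experiment, slide and scan day, the series table, single arrays left out, and the conflicting descriptions. Every probe without the samples of conflicting description was added after seeing the data.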

Additional observations from a re-analysis of the deposited data

How the results depend on the processing

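Cflar was the called gene of the set in both genotypes. With the replicate number as a block 4 genes of the set were called in MyD88-null cells and 4 in C57BL/6 cells, and likewise 4 and 4 with the slide as a random block. With the scan day as a block 2 were called in MyD88-null cells and 3 in C57BL/6 cells, and with every probe tested 2 in MyD88-null cells and 3 in C57BL/6 cells. With treatment taken from the descriptions 0 were called in each. Leaving out 1 array at a time gave 1 to 1 in MyD88-null cells and 1 to 2 in C57BL/6 cells.

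Over all genes, 191 were called in MyD88-null cells and 139 in C57BL/6 cells. In MyD88-null cells the count was 682 with the replicate block, 659 with the slide, 357 with the scan day, 90 without the samples of conflicting description, 0 with treatment from the descriptions, and 115 to 186 with 1 array left out. In C57BL/6 cells it was 570, 754, 323, 59 and 0 under the same settings, 83 with no filter on dim probes, and 66 to 156 with 1 array left out. For the difference of responses it was 0, and 2 with the slide. Between MyD88-null and C57BL/6 cells with apoA-I it was 11, then 38 with the replicate block, 44 with the slide, 17 with the scan day, 6 without the conflicting samples, 2 with the descriptions, and 8 to 13 with 1 array left out. Between MyD88-null and C57BL/6 control cells it was 16, then 99 with the replicate block, 68 with the slide, 9 with normexp, 2 without the conflicting samples, 2 with the descriptions, and 6 to 16 with 1 array left out. The cause was not tested. Each log2 change of a single gene was counted once per alternative. Of these, 37 fell short of the threshold, 27 passed it newly, 76 moved to the opposite sign and 1950 did none of these. By gene and comparison, 19 of 95 changes fell short under at least 1 alternative, 12 passed newly and 29 moved. Without the samples of conflicting description, chosen for single probes after seeing the data, the calls of 3 member probes in MyD88-null cells and 1 in C57BL/6 cells were lost. The replicate block changed no call of a member beyond those given beside the results.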
